A study of Mus musculus with 11 samples.

Results

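A protein meant for the cell surface or for secretion enters the endoplasmic reticulum (ER) through a channel, is trimmed and folded there, and is destroyed if it fails to fold. RNA of 40 genes of this route was followed in mouse B cells. The genes were given by symbol, and each was found by its Ensembl identifier in a table of 48795 genes, of which 21695 are annotated as protein coding. By role they were 9 ER chaperones and their partners, 6 lectins and disulfide isomerases, 6 genes of the degradation of misfolded proteins, 5 sensors and transcription factors of the unfolded protein response, 9 genes of the translocon and of the translocon-associated protein complex (TRAP), 3 subunits of the signal peptidase and 2 of the signal recognition particle.

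The 11 libraries held RNA of B cells sorted from spleens of female mice on the C57BL/6 background, 8 to 12 weeks old, on day 10 after intravenous sheep red blood cells (SRBCs), an antigen that drives germinal centers. Light zone (LZ) germinal center B cells (B220+ CD138neg IgDneg CD38neg Fas+ CD86high CXCR4low) came from 4 MycWT mice, numbered 1 to 4, and from 4 MycVD mice, numbered 5 to 8. MycVD mice carry at the endogenous Myc locus an allele that puts aspartic acid in place of a valine of MYC (V394D), so every cell of the mouse carries it. MYC with this change no longer binds its partner MIZ1 but still binds MAX. Memory B cells (MBCs; B220+ CD138neg IgDneg CD38+ CD273+) came from MycWT mice 1, 3 and 4 and are replicates 1, 2 and 3 of that group. No MBC library of MycVD was analysed here. All MycVD mice share a prefix in their titles that no MycWT mouse has, so the genotype and whatever that prefix marks cannot be told apart.

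Plasma cells are known for a large ER and for high levels of these genes, which the transcription factor XBP1 drives there, whereas LZ and memory B cells secrete little antibody. In the unfolded protein response 3 sensors in the ER membrane, IRE1α (Ern1), PERK (Eif2ak3) and ATF6, report a load of unfolded proteins. IRE1α splices the RNA of Xbp1, PERK raises translation of ATF4 and, through it, the level of CHOP (Ddit3), and ATF6 is cleaved into a factor that acts on promoters of chaperone genes.

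Levels are in TPM, a unit that corrects the reads of a gene for its transcript length and gives every library 1 common total, so levels of different genes can be compared. Depth is not kept in TPM, and the precision given is the spread between mice. Genes of ribosomal RNA took 35.7 to 44.5% of TPM in MycWT LZ, 44.1 to 61.3% in MycVD LZ and 36.1 to 37.5% in MBCs, and protein-coding genes 48.7 to 58.6, 33.1 to 49.7 and 52.9 to 55%. Where ribosomal RNA takes more of the total, less of it is left for all other genes together. Differences are therefore also given relative to the median of protein-coding genes. Of 9 germinal center markers, 5 fell in MBCs at an adjusted p under 0.05, among them Bcl6 (156.14 to 214.83 TPM in MycWT LZ, 23.19 to 53.35 in MBCs), and of 8 memory markers 7 rose, among them the sorted Cd38 and Pdcd1lg2 (CD273) and Ccr6, which was not sorted on (3.0 to 5.83 and 135.93 to 201.39 TPM). Nt5e (CD73) was the exception, with 10.79 to 13.37 TPM in MycWT LZ and 6.8 to 11.47 in MBCs. Globin RNA was high in the MBC library of mouse 3, where Hbb-bs was at 2609.44 TPM against at most 20.66 in the other MBC libraries. In these bulk libraries, fewer cells with a transcript and less of it per cell cannot be told apart.

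The promoters of the chaperones show what many of the 40 genes share beside their function. The ER stress response element (ERSE), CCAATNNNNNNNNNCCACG, is bound by NF-Y at its CCAAT end and by ATF6 at its CCACG end. RefSeq windows of GRCm38.p6, from 250 bases before the start of transcription to 50 after it, were at hand for 33 of the 40 genes. ERSE, read on either strand, was in the windows of 8 of the 33 genes (24.2%), against 39 of all 32851 windows (0.119%). The first share counts genes and the second counts windows, so they differ in unit, here and below. ERSE-II, ATTGGNCCACG, was in those of 2 further genes (6.06%, against 12 windows or 0.0365%), and TGACGTGG, a site known for ATF6 and XBP1, in none, against 222 windows (0.676%). The sites of 9 genes follow, 5′ to 3′ along the gene's strand with the motif in capitals and 12 bases on either side; a motif on the other strand starts with CGTGG and ends with ATTGG, or is ERSE-II where its name says so.
Hspa5: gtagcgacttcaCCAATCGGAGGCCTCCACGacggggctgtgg
Hsp90b1, distal site: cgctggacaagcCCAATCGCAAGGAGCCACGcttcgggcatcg
Hsp90b1, proximal site: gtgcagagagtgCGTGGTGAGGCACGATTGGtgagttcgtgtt
Dnajc3: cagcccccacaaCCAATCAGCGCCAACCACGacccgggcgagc
Creld2: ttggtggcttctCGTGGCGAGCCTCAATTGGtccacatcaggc
Calr: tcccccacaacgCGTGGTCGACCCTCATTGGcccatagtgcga
Canx: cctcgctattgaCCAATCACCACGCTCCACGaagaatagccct
Pdia6: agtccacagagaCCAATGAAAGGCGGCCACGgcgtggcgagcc
Syvn1: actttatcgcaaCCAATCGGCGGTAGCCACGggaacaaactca
Herpud1, ERSE-II: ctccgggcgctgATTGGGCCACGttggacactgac
The Hspa5 stretch (chr2:34772013-34772055, plus strand) has its motif 65 to 47 bases before the start, and those of Hsp90b1 (chr10:86705626-86705668 and chr10:86705521-86705563, minus strand) have theirs 212 to 194 and 107 to 89 bases before it. The motif lies 105 to 87 bases before the start in Dnajc3 (chr14:118937815-118937857, plus strand) and 126 to 108 bases before it in Creld2 (chr15:88819508-88819550, plus strand). It lies 162 to 144 bases before the start in Calr (chr8:84847063-84847105, minus strand), 145 to 127 in Canx (chr11:50325788-50325830, minus strand) and 98 to 80 in Pdia6 (chr12:17266479-17266521, plus strand). In Syvn1 (chr19:6046520-6046562, plus strand) it lies 44 to 26 bases and in Herpud1 (chr8:94386365-94386399, plus strand) 52 to 42 bases before the start. Of the 8 genes with ERSE, 4 are chaperones or their partners, 3 are lectins or disulfide isomerases and 1, Syvn1, acts in degradation; Dnajb11 is the other gene with ERSE-II. None of the translocon, TRAP, signal peptidase or signal recognition particle genes with a window held either motif. A match is only a run of letters in the window and shows no binding.

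**Figure D1:**
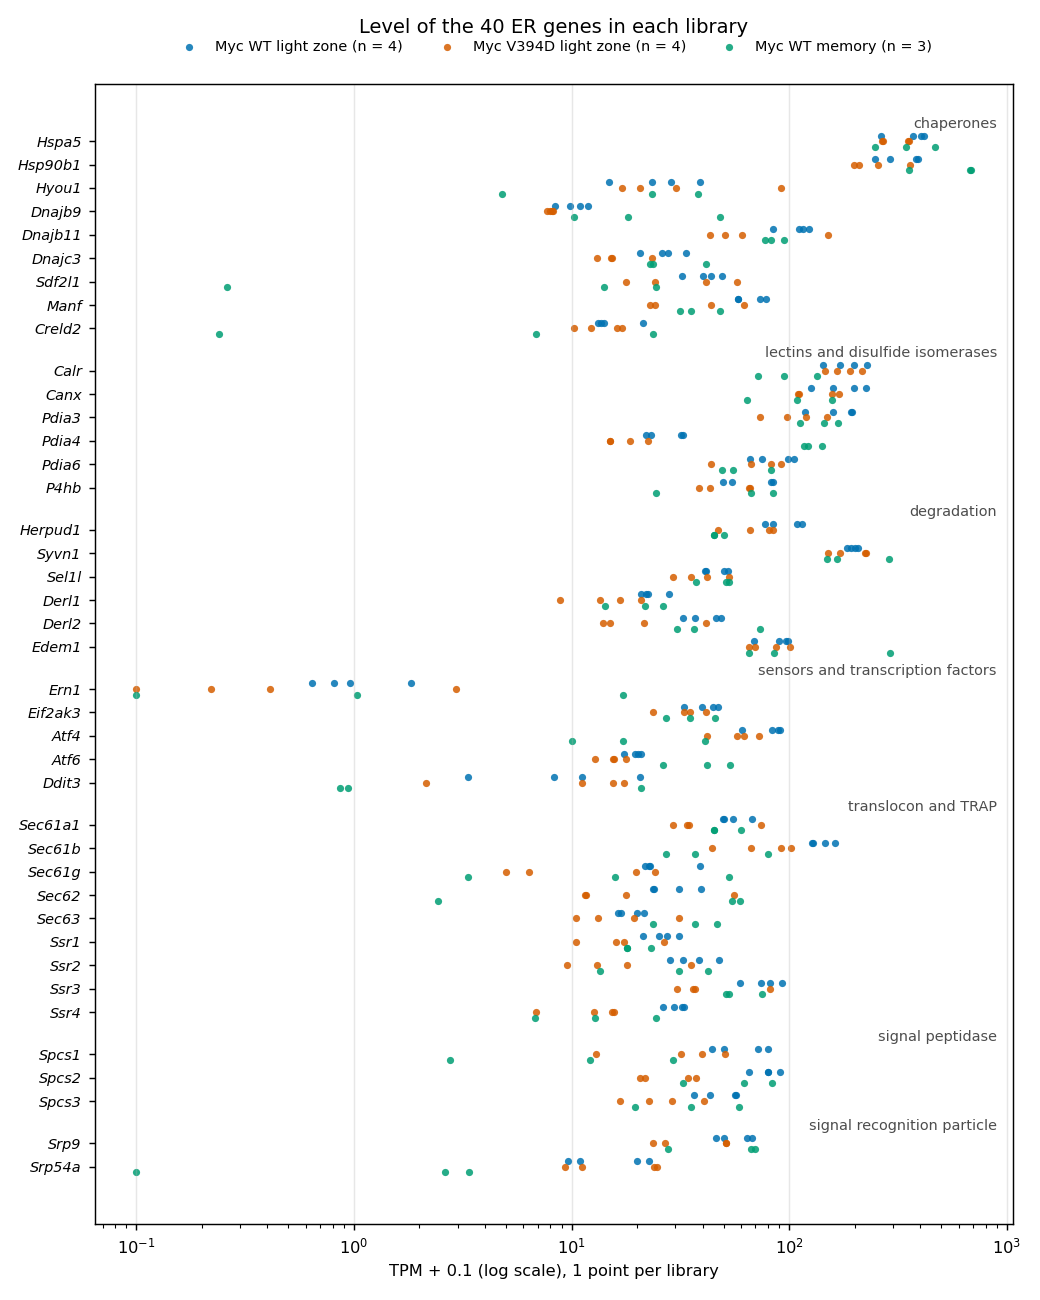
Level of each of the 40 genes (rows, grouped by role) as TPM + 0.1 on a log axis, with 1 point per library for MycWT LZ (n = 4), MycVD LZ (n = 4) and MycWT memory (n = 3). Hspa5 and Hsp90b1 lie toward the right in all 3 groups, and Ern1 toward the left except for 1 memory point at 17.14 TPM. The memory points of Pdia4 lie to the right of all LZ points.

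In MycWT LZ the 40 genes spanned levels from 363 ± 69.3 TPM (SD, n = 4) for Hspa5 to 0.96 ± 0.53 TPM for Ern1. Above 100 TPM were 8 genes, between 20 and 100 TPM 25 genes, and below 20 TPM 7 genes. Libraries of MycWT LZ varied least, with a median coefficient of variation over the 40 genes of 18.6%, whereas it was 33.2% in MycVD LZ and 42.8% in MBCs. Summed, the 40 genes took 0.503 to 0.604% of protein-coding TPM in MycWT LZ, 0.535 to 0.566% in MycVD LZ and 0.492 to 0.592% in MBCs. These ranges overlapped between all 3 groups. Within the route they did not always: signal peptidase genes took 0.0312 to 0.0386% of protein-coding TPM in MycWT LZ, 0.0155 to 0.0259% in MycVD LZ and 0.0151 to 0.0272% in MBCs, and translocon and TRAP genes 0.0779 to 0.0923, 0.0545 to 0.0743 and 0.0518 to 0.0717%. For both roles every MycWT LZ library lay above every library of the other groups. Chaperones (0.153 to 0.205% in MycWT LZ, 0.165 to 0.211% in MycVD LZ) and lectins and isomerases (0.108 to 0.151 and 0.129 to 0.142%) overlapped between the genotypes. Both comparisons below use the same 4 MycWT LZ libraries, so they are not independent of each other.

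**Figure D2:**
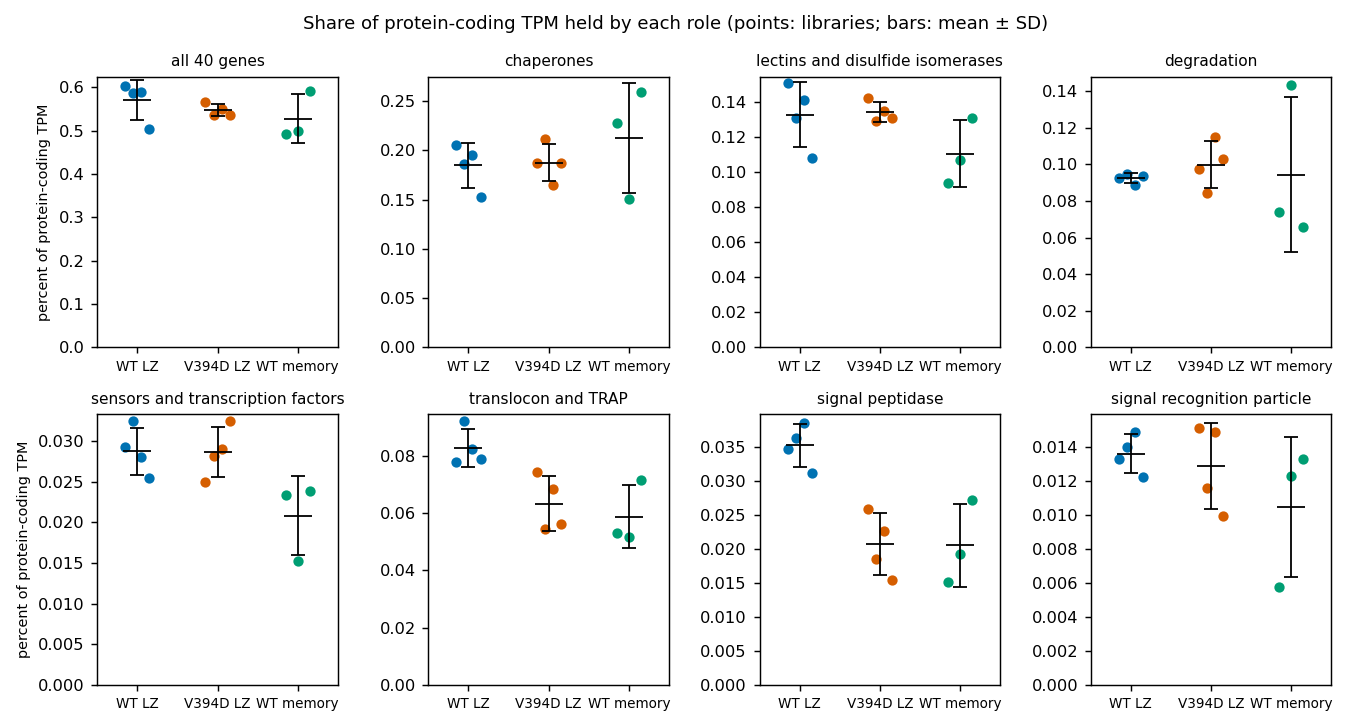
Percent of protein-coding TPM (y axes from 0) held by all 40 genes and by each role in every library of MycWT LZ, MycVD LZ and MycWT memory, with bars for the mean ± SD. Signal peptidase and translocon and TRAP genes are the roles in which all 4 MycWT LZ libraries lie above all others, while the sum of the 40 genes overlaps between groups.

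Whether LZ B cells without the MYC–MIZ1 interaction differ in these genes was asked first. Of the 40 genes 39 had a mean of at least 1 TPM and were tested, Ern1 being below it. None passed an adjusted p of 0.05 in limma, where 0.00777% of all 12869 genes tested were called higher and 0.0389% lower in MycVD. At an unadjusted p under 0.05, 14 of the 39 were lower and 0 higher, against 15.7% of all genes lower and 1.24% higher. In order of p the 14 were Spcs2, Ssr4, Sec61b, Ssr2, Spcs3, Manf, Derl2, Ssr3, Dnajc3, Spcs1, Sec61g, Pdia3, Pdia4 and Derl1. All 3 signal peptidase genes and 5 of the 9 translocon and TRAP genes were among them, against 2 of 9 chaperones and partners, 2 of 6 lectins and isomerases and 2 of 6 degradation genes. None of the 4 sensors and factors tested was among them, and neither of the 2 signal recognition particle genes. Over the 39 genes the median difference was -0.47 on the log2(TPM + 1) scale, while over 9887 protein-coding genes it was -0.32, which leaves -0.15. After TPM were rescaled by the median ratio, which brings the median of all genes from -0.31 to -0.01, 6 of the 39 were lower at an unadjusted p under 0.05 (Spcs2, Ssr4, Sec61b, Spcs3, Manf and Derl2) and 0 higher, against 6.33% of all genes lower and 5.49% higher. By role the medians relative to protein-coding genes ran from -0.64 for the signal peptidase and -0.50 for translocon and TRAP to 0.05 for the signal recognition particle. The last is the middle of 2 genes that lay apart, Srp9 (-0.31) and Srp54a (0.41). Srp54a has a near-identical copy, given below, so this median is uncertain.

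LZ and memory B cells of MycWT mice were compared next, with all 40 genes tested. In MBCs 1 gene rose (Pdia4) and 5 fell (Srp54a, Spcs1, Atf4, Sec61b and Herpud1) at an adjusted p under 0.05 in limma, against 4.17% of all 13245 genes tested higher and 5.04% lower. By unadjusted p under 0.05, 4 genes were above LZ (with Atf6, Hsp90b1 and Sec63) and 9 below it (with Calr, Manf, Ssr4 and Sdf2l1), against 11.3 and 15.8% of all genes. The median difference of the 40 genes was -0.38, with 30 below 0, and -0.24 relative to the median of 10156 protein-coding genes (0.03 without the MBC library of mouse 1). With the mouse as a block, since both cell types came from the same mice, Pdia4 was still called and the number of genes called lower was 0. In that fit 0.989% of all genes were called higher and 0.897% lower. It held mice 1, 3 and 4 only, without the LZ library of mouse 2, so the block and the missing library cannot be told apart. The differences of the 5 genes were then -2.81 to -1.06, with larger SEs. The number called lower was also 0 when any 1 of the 4 LZ libraries was left out (1.31, 1.04, 1.03 and 2.0% of all genes without mouse 1, 2, 3 and 4), and 1, 6 and 9 without the MBC library of mouse 1, 3 and 4 (Srp54a alone; Ssr4 in addition; and Calr, Ddit3, Manf and Sdf2l1 in addition), while the number called higher was 1 without the MBC library of mouse 1 or 4 and 4 (Pdia4, Atf6, Hsp90b1 and Sec63) without that of mouse 3, the library with globin RNA. Of all genes, 4.43, 5.9 and 14% were called lower without the MBC library of mouse 1, 3 and 4, and 4.35, 6.78 and 7.06% higher.

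**Figure D3:**
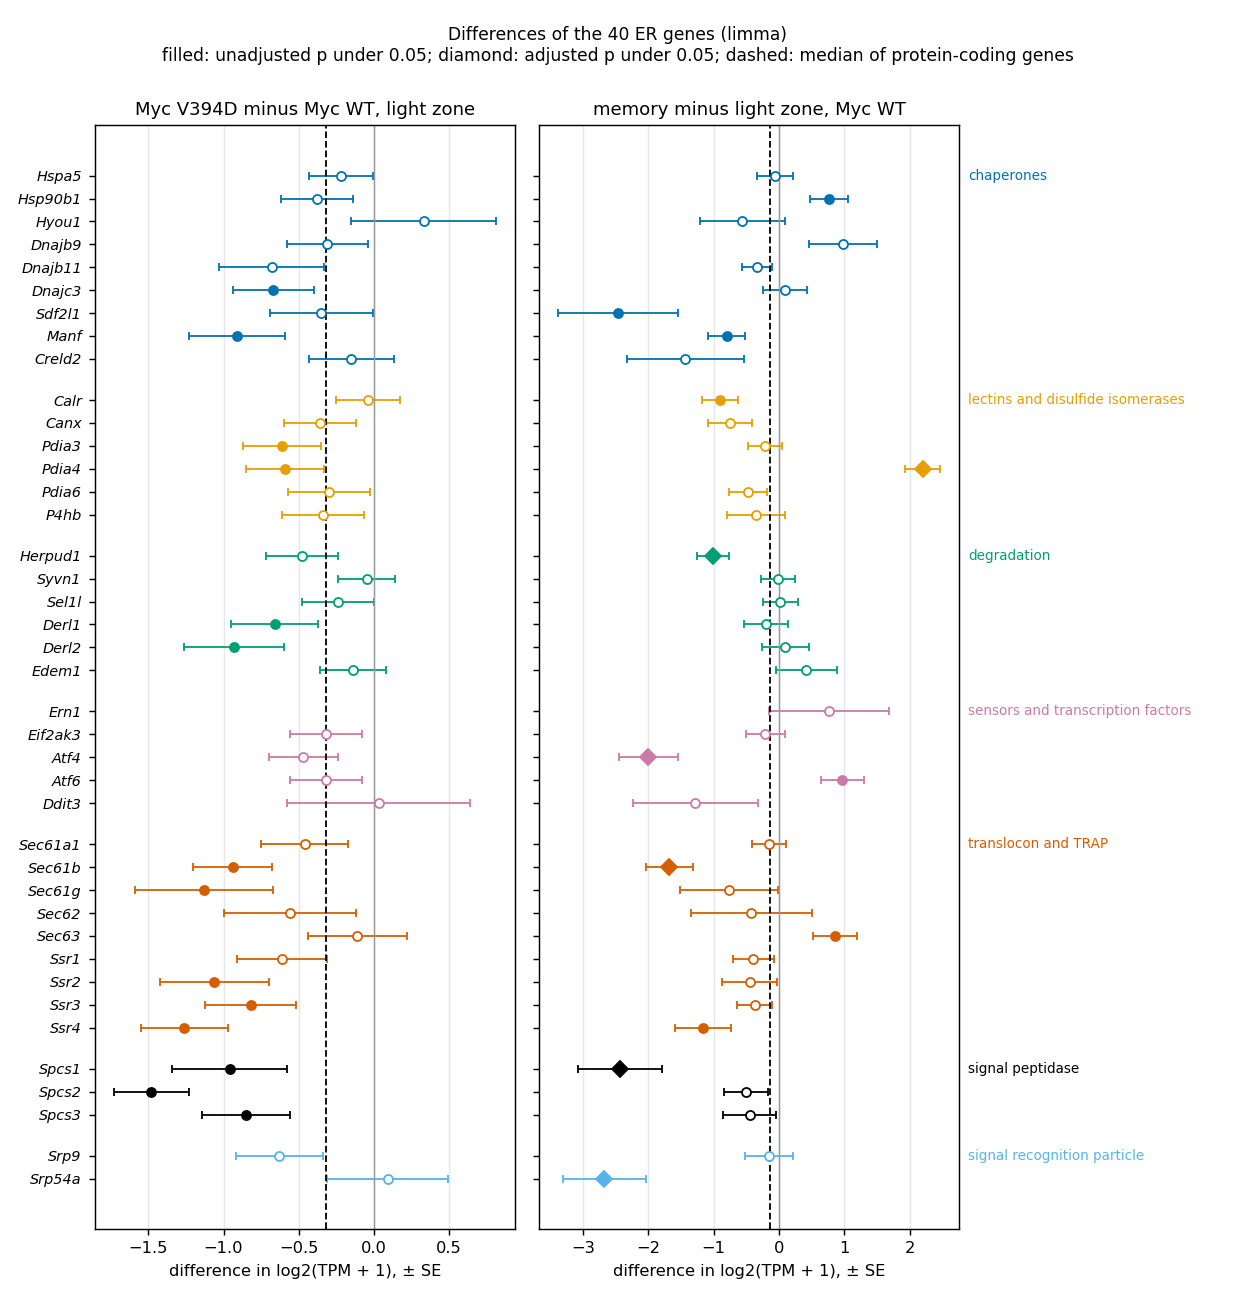
Difference in log2(TPM + 1) with its SE from limma for each gene, MycVD minus MycWT in LZ (left) and memory minus LZ in MycWT (right), coloured by role; the x axes differ. Filled symbols have an unadjusted p under 0.05, diamonds an adjusted p under 0.05, and the dashed line is the median of protein-coding genes; the diamonds, 1 higher and 5 lower, are all in the right panel, and in the left panel the signal peptidase genes lie left of the dashed line.

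The chaperones come first by level. Hspa5 encodes BiP, the ER chaperone that also holds the 3 sensors inactive. It was at 370.2, 405.15, 414.07 and 263.2 TPM in MycWT LZ of mice 1 to 4, at 355.54, 351.76, 268.78 and 266.83 TPM in MycVD LZ of mice 5 to 8, and at 344.59, 247.36 and 468.45 TPM in MBCs of mice 1, 3 and 4. All 3 groups overlapped, with differences of -0.22 ± 0.21 (SE) in MycVD (adjusted p = 0.618, and 0.13 in place of -0.22 after rescaling by the median ratio) and -0.06 ± 0.27 in MBCs (adjusted p = 0.905). Hsp90b1, the ER form of HSP90 known for folding of Toll-like receptors and integrins, was at 392.6, 291.0, 383.27 and 247.51 TPM in MycWT LZ and at 359.22, 208.27, 255.8 and 199.01 TPM in MycVD LZ, with overlap (-0.38 ± 0.24). In MBCs Hsp90b1 stood at 684.79 and 674.48 TPM in mice 1 and 4 and at 355.2 TPM in mouse 3, which lies within the LZ range (0.76 ± 0.29, adjusted p = 0.131). Over the 18 other settings the difference of Hsp90b1 in MBCs ran from 0.60 to 1.07 with adjusted p from 0.0295 to 0.342, under 0.05 in 3 of them. It was 1.07 without the MBC library of mouse 3 (adjusted p = 0.0314), and 0.60 and 0.61 without those of mice 1 and 4 (adjusted p = 0.248 and 0.227).

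Among the partners of BiP, the J-domain proteins Dnajb9, Dnajb11 and Dnajc3 differed by -0.31, -0.68 and -0.67 in MycVD and by 0.98, -0.34 and 0.09 in MBCs, none at an adjusted p under 0.05. Dnajb9 was low and even in MycVD, at 7.64 to 8.14 TPM against 8.28 to 11.82 in MycWT LZ. These ranges did not overlap, but the difference of Dnajb9 was that of protein-coding genes at large (0.01 relative to their median), and its p was 0.994 after rescaling by the median ratio. Hyou1, a nucleotide exchange factor for BiP, was at 14.72 to 38.83 TPM in MycWT LZ and at 92.05 TPM in MycVD mouse 6 with 17.01 to 30.14 in the others; its difference of 0.33 ± 0.48 was the highest of the 39 genes. Manf, a small ER protein that binds BiP and is also secreted, was at 58.08, 73.53, 78.36 and 58.22 TPM in MycWT LZ, at 61.78, 43.51, 24.1 and 22.74 TPM in MycVD LZ and at 31.54 to 48.05 TPM in MBCs. Mouse 5 was the MycVD mouse within the MycWT LZ range. The differences of Manf were -0.91 ± 0.32 (adjusted p = 0.193) and -0.80 ± 0.28 (adjusted p = 0.102), and MBCs did not overlap with MycWT LZ. Sdf2l1, which works with Dnajb11, was at 32.18 to 49.26 TPM in MycWT LZ and 17.72 to 57.42 in MycVD LZ, and in MBCs at 14.07, 0.16 and 24.22 TPM (-2.46 ± 0.92, adjusted p = 0.127). Creld2, an ER stress protein with isomerase activity, varied more in MBCs, with 0.14, 6.75 and 23.54 TPM, than in MycWT LZ, with 13.07 to 21.3 TPM.

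Lectins and isomerases held the only gene that rose. Pdia4 (ENSMUSG00000025823, chr6:47796141-47813430, minus strand) encodes ERp72, a disulfide isomerase of the ER lumen. In MycWT LZ it was at 32.4, 23.01, 31.86 and 21.79 TPM, in MycVD LZ at 14.91, 22.46, 18.55 and 14.91 TPM, and in MBCs at 117.15, 141.51 and 122.21 TPM. The MBC libraries were close to each other and all lay far above every LZ library, 4.58 times the LZ level on the log2(TPM + 1) scale (2.20 ± 0.27, adjusted p = 0.00325 in limma; exact permutation p = 0.0286, the smallest that 35 groupings can give). Over all 18 other settings its difference ran from 2.02 to 2.47, with adjusted p from 0.000516 to 0.0387. In MycVD it was lower (-0.59 ± 0.26, adjusted p = 0.271), with ranges that overlapped. The window of Pdia4 holds no ERSE, but it holds ERSE on the other strand with 1 of its 10 fixed letters changed, 90 to 108 bases before the start (chr6:47813590-47813632, minus strand). Such a form was found in 1.4% of all windows and in those of 8 of the 33 genes, and was searched for after the values were seen.
Pdia4: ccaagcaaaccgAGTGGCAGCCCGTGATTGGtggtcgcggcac

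No other isomerase of the 40 genes was called in MBCs. Pdia3 (ERp57), the partner of the lectins, was at 117.86 to 195.27 TPM in MycWT LZ and 111.84 to 167.5 TPM in MBCs (-0.22 ± 0.26), and Pdia6 and P4hb, the founding protein disulfide isomerase, differed by -0.47 and -0.35 with ranges that overlapped. Calr and Canx are the lectins that hold glycoproteins until they are folded. Calr was at 227.79, 170.5, 197.84 and 143.6 TPM in MycWT LZ and, at 146.41 to 214.95 TPM in MycVD LZ (-0.04 ± 0.21, and 0.31 after rescaling by the median ratio). In MBCs Calr was at 94.86, 71.53 and 134.43 TPM, all below the LZ libraries (-0.90 ± 0.28, adjusted p = 0.0772), and it passed 0.05 after rescaling by the median ratio. Canx, its membrane-bound relative, differed by -0.36 ± 0.24 in MycVD and -0.75 ± 0.34 in MBCs. Within MycVD, Pdia3 and Pdia4 had the lowest differences of this role (-0.61 and -0.59), and Pdia6 and P4hb lay at the median of protein-coding genes (-0.30 and -0.34).

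**Figure D4:**
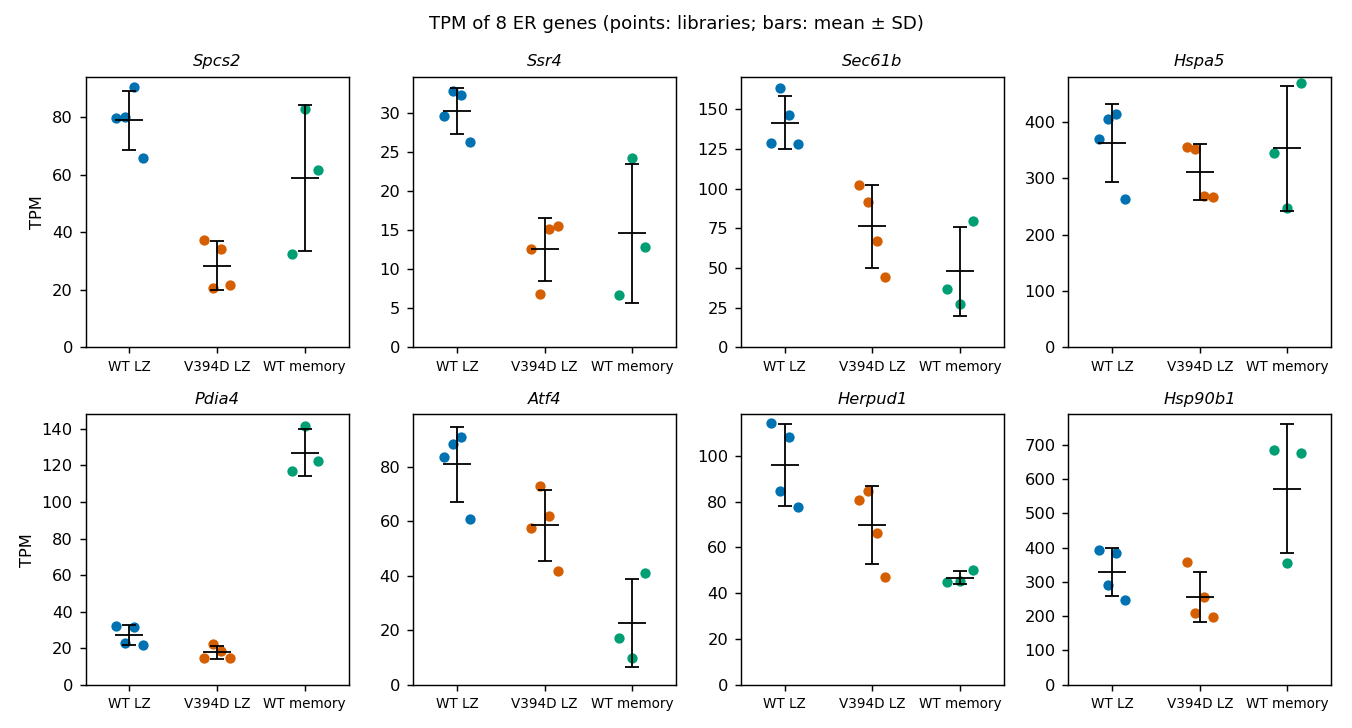
TPM (y axes from 0) of 8 genes in each library of MycWT LZ, MycVD LZ and MycWT memory, with bars for the mean ± SD. MycVD points lie below all MycWT LZ points for Spcs2, Ssr4 and Sec61b, memory points lie above all LZ points for Pdia4 and below the MycWT LZ points for Sec61b, Atf4, Herpud1 and Ssr4, and Hspa5 overlaps in all groups.

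Degradation of misfolded proteins runs through the HRD1 complex, in which Syvn1 is the ubiquitin ligase, Sel1l its adaptor and Herpud1 a scaffold. Syvn1 was at 183.27 to 206.74 TPM in MycWT LZ, 150.04 to 224.88 in MycVD LZ and 149.77 to 288.44 in MBCs, with differences of -0.05 and -0.02 (0.30 in MycVD after rescaling by the median ratio). Sel1l differed by -0.24 and 0.02. Herpud1, with an ERSE-II, fell in MBCs: it was at 114.47, 84.5, 108.13 and 77.53 TPM in MycWT LZ and at 44.94, 45.21 and 50.03 TPM in MBCs, which were even and below all MycWT LZ libraries (-1.01 ± 0.25, adjusted p = 0.0392, and 0.233 with the mouse as a block). Herpud1 in MycVD was at 47.01 to 84.46 TPM (-0.48 ± 0.24, adjusted p = 0.341). Derl1 and Derl2 form a channel by which proteins leave the ER. Derl2 was at 32.29, 46.06, 48.48 and 36.85 TPM in MycWT LZ and in MycVD at 41.19 TPM in mouse 5 but at 13.88, 21.32 and 14.94 TPM in mice 6 to 8 (-0.93 ± 0.33, adjusted p = 0.204, and 0.0443 without mouse 5). Derl1 was at 20.79 to 28.07 and 8.76 to 20.76 TPM, ranges that just failed to overlap (-0.66 ± 0.29, adjusted p = 0.279). In MBCs neither Derlin differed beyond its spread (-0.20 and 0.10). Edem1, which marks glycoproteins for destruction, was at 65.41 to 100.35 TPM in all LZ libraries and at 289.91 TPM in the MBC library of mouse 3 only, with 85.1 and 65.52 TPM in the others.

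Of the sensors, Atf6 was at 19.42, 17.31, 20.02 and 20.82 TPM in MycWT LZ, at 17.69, 12.76, 15.57 and 15.36 TPM in MycVD LZ and at 53.1, 26.27 and 41.77 TPM in MBCs. MBCs lay above LZ (0.97 ± 0.33, adjusted p = 0.104). Over the 18 other settings the adjusted p of Atf6 ran from 0.0239, without the MBC library of mouse 3, to 0.426, with the mouse as a block, and passed 0.05 in that 1 setting. Eif2ak3 was at 44.61, 47.12, 39.86 and 32.88 TPM in MycWT LZ, at 34.91, 23.57, 41.53 and 32.7 TPM in MycVD LZ and at 35.06, 45.45 and 27.15 TPM in MBCs, with overlap throughout (-0.32 ± 0.24 and -0.21 ± 0.30). After rescaling by the median ratio the MycVD differences of Atf6 and Eif2ak3 were 0.0013 and 0.02. Ern1 was at 0.54 to 1.73 TPM in MycWT LZ, at 2.85, 0, 0.12 and 0.31 TPM in MycVD LZ and at 17.14, 0 and 0.93 TPM in MBCs, so its level in MBCs rests on mouse 1. The sum of 10 plasma cell genes was 519.2 TPM in that library, between those of mice 3 and 4 (384.6 and 693.2 TPM); Prdm1, Xbp1 and Slamf7 were highest in mouse 1, and Jchain, Mzb1 and Irf4 in mouse 4. The part of plasma cells in the value of Ern1 was not tested.

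Atf4 codes for the factor that PERK acts through, and its RNA level says nothing of its translation. It fell in MBCs, from 83.52, 88.43, 91.06 and 60.67 TPM in MycWT LZ to 17.12, 9.9 and 40.9 TPM, with no overlap (-2.0 ± 0.45, adjusted p = 0.0282, and 0.117 with the mouse as a block). In MycVD it was at 41.67 to 72.88 TPM (-0.47 ± 0.23, adjusted p = 0.334). Ddit3, or CHOP, a target of ATF4 that promotes death under ER stress, varied widely within each group, with 3.25, 20.58, 11.04 and 8.18 TPM in MycWT LZ, 11.08, 15.34, 2.05 and 17.23 TPM in MycVD LZ, and 0.84, 0.76 and 20.8 TPM in MBCs. Neither difference of Ddit3 passed the test (0.03 ± 0.61 and -1.28 ± 0.96).

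Of the translocon and TRAP genes, Ssr4, Sec61b, Ssr2, Ssr3 and Sec61g were lower in MycVD at an unadjusted p under 0.05. The SEC61 channel has 3 subunits. Sec61a1, the pore, was at 49.57, 67.59, 54.99 and 49.95 TPM in MycWT LZ and in MycVD at 74.12 TPM in mouse 5 and at 29.02, 34.48 and 33.67 TPM in mice 6 to 8 (-0.46 ± 0.29). MBCs, with 44.83 to 60.27 TPM, overlapped with LZ. Sec61b was at 128.58, 162.94, 146.1 and 127.76 TPM in MycWT LZ, at 101.98, 91.73, 66.96 and 44.16 TPM in MycVD LZ and at 37.01, 27.1 and 79.55 TPM in MBCs. Both other groups lay below all MycWT LZ libraries, by -0.94 ± 0.26 (adjusted p = 0.132) in MycVD and by -1.68 ± 0.36 (adjusted p = 0.0244, and 0.103 with the mouse as a block) in MBCs. Sec61g was at 22.77, 38.86, 21.63 and 22.55 TPM in MycWT LZ, at 23.96, 6.25, 19.61 and 4.91 TPM in MycVD LZ and at 3.25 to 52.6 TPM in MBCs (-1.13 ± 0.46 and -0.77 ± 0.75). Its value is uncertain, since the pseudogene Gm10177 is 100% identical to it over 420 bases and had a higher level (88.32 to 214.74 TPM in MycWT LZ). Summed, the pair was at 111.09 to 253.6 TPM in MycWT LZ, 52.6 to 93.11 in MycVD LZ and 41.7 to 59.18 in MBCs, so the sum did not overlap between MycWT LZ and either group.

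Sec62 and Sec63 help to feed proteins into the channel after translation. Sec63 was at 16.22 to 21.32 TPM in MycWT LZ and higher in MBCs at 46.36, 23.66 and 36.62 TPM (0.86 ± 0.34, adjusted p = 0.144), and MycVD LZ spanned both sides of MycWT LZ with 10.33 to 31.08 TPM. Sec62 varied too much for a statement, from 2.34 to 59.22 TPM within MBCs alone. The TRAP complex, encoded by Ssr1 to Ssr4, sits beside the channel and aids entry of some signal peptides. Ssr4 was at 29.52, 32.74, 32.19 and 26.27 TPM in MycWT LZ and at 12.55, 6.78, 15.16 and 15.57 TPM in MycVD LZ, without overlap (-1.26 ± 0.29, adjusted p = 0.108). MBCs were also below MycWT LZ for Ssr4, with 6.67, 24.24 and 12.77 TPM (-1.16 ± 0.43, adjusted p = 0.125). Ssr2 was at 28.17, 38.55, 47.62 and 32.33 TPM in MycWT LZ and at 17.89, 13.01, 35.15 and 9.45 TPM in MycVD LZ, where mouse 7 lay within the MycWT range (-1.06 ± 0.36, adjusted p = 0.191). Ssr3 and Ssr1 differed by -0.82 ± 0.30 and -0.61 ± 0.30 in MycVD, and Ssr2, Ssr3 and Ssr1 by -0.45, -0.37 and -0.39 in MBCs. For Ssr3, MycVD mouse 5 stood at 81.48 TPM, within the MycWT LZ range of 59.02 to 92.72, and mice 6 to 8 at 30.33 to 36.73 TPM (-1.12 with an adjusted p of 0.0429 without mouse 5). Without mouse 5, 3 of the genes were called lower (Spcs2, Ssr3 and Derl2) and 0 higher, against 1.88 and 0.0934% of all genes.

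Signal peptidase cuts off the signal peptide once a protein has entered, and Spcs1, Spcs2 and Spcs3 are its subunits without the catalytic site. Spcs2 (ENSMUSG00000035227, chr7:99837569-99863462, minus strand) had the lowest difference of the 39 genes in MycVD. It was at 79.52, 79.94, 90.32 and 65.6 TPM in MycWT LZ and at 37.17, 20.47, 34.02 and 21.68 TPM in MycVD LZ. Every MycVD library was below every MycWT one, at 0.358 times the level on the log2(TPM + 1) scale (-1.48 ± 0.25, adjusted p = 0.0634; exact permutation p = 0.0286, the smallest that 70 groupings can give). Of protein-coding genes, 1.45% had a lower difference. Spcs2 was singled out as the lowest of the 39 genes, and neither this share nor the permutation p allows for that choice. Over the 18 other settings the difference of Spcs2 ran from -1.62 to -1.12, and its adjusted p from 0.0295 (without mouse 5) to 0.413 (all 3 groups in the fit), under 0.05 in 2 of them. After rescaling by the median ratio it was -1.14 ± 0.19 (adjusted p = 0.0942). In MBCs Spcs2 was at 32.44, 82.88 and 61.58 TPM, across the LZ range (-0.50 ± 0.34).

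Spcs1 was the subunit that fell in MBCs, from 43.88, 72.12, 79.61 and 50.16 TPM in MycWT LZ to 12.03, 2.65 and 29.1 TPM (-2.43 ± 0.64, adjusted p = 0.0494, and 0.134 with the mouse as a block). In MycVD Spcs1 was at 50.63, 39.54, 31.87 and 12.84 TPM (-0.96 ± 0.38, adjusted p = 0.238), a range that overlapped with MycWT LZ. Spcs3 was at 36.27 to 56.87, 16.58 to 40.63 and 19.49 to 58.59 TPM (-0.85 ± 0.29, adjusted p = 0.191, and -0.45 ± 0.40).

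The signal recognition particle brings ribosomes with a nascent signal peptide to the ER. Srp9, one of its Alu-domain proteins, was at 46.13 to 67.18 TPM in MycWT LZ, 23.6 to 51.25 in MycVD LZ and 27.73 to 69.63 in MBCs (-0.63 ± 0.29 and -0.15 ± 0.37). Srp54a, the subunit that binds the signal peptide, was at 22.71, 10.89, 19.85 and 9.54 TPM in MycWT LZ and fell to 2.53, 0 and 3.29 TPM in MBCs (-2.67 ± 0.63, adjusted p = 0.0341). This call does not hold for the protein's total RNA: the copy Srp54c is 99.5% identical over 3640 bases, and was at 58.54 to 92.23 TPM in MycWT LZ and 57.82 to 81.5 TPM in MBCs. Their sum was at 68.08 to 112.08 TPM in MycWT LZ and 60.35 to 81.5 TPM in MBCs, a difference of -0.23, and of -0.30 in MycVD.

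Transcript length moved with these differences. Over the 40 genes Spearman's rho between the length of the longest transcript and the difference was 0.29 in MycVD (39 genes) and 0.60 in MBCs, and over all protein-coding genes tested it was 0.25 and 0.32; these describe genes of the same libraries, which are not independent replicates. In MBCs the median difference of protein-coding genes ran from -1.22 in the shortest of 20 equal bins (median 783 bases) to 0.52 in the longest, and in MycVD from -0.65 to -0.09. The 5 shortest of the 40 were Sec61b (723 bases), Ddit3 (969), Sdf2l1 (1108), Ssr2 (1189) and Spcs1 (1241). A correction for length within each library, chosen after seeing the data, also centres the libraries, as the median ratio does, so its effect in MycVD is not that of length alone. With it, the genes called in MBCs at an adjusted p under 0.05 were Pdia4 and Hsp90b1 as higher and Srp54a and Atf4 as lower, against 4.25% of all genes higher and 4.09% lower. In MycVD, where the median ratio alone left 6 genes lower, 4 genes were lower at an unadjusted p under 0.05 (Spcs2, Ssr4, Derl2 and Spcs3) and 1, Calr, higher, against 5.07 and 5.56% of all genes. Spcs2, with 2909 bases, then differed by -1.14 in MycVD, as after the median ratio, and Pdia4, with 2399 bases, by 2.47 in MBCs. The calls of Sec61b, Spcs1 and Herpud1 in MBCs were lost, with differences of -0.87, -1.68 and -0.54 (adjusted p = 0.0539, 0.061 and 0.249).

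**Figure D5:**
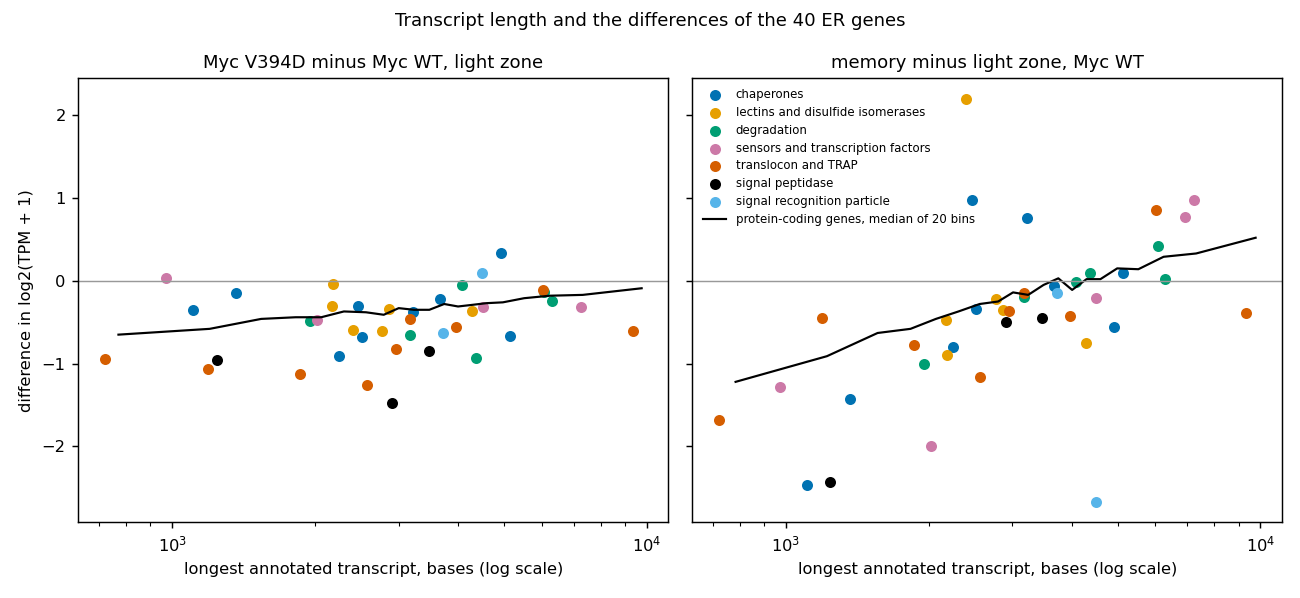
Difference in log2(TPM + 1) of the 40 genes (points, coloured by role) against the length of their longest annotated transcript in bases on a log axis, for MycVD minus MycWT in LZ (left) and memory minus LZ in MycWT (right). The black line joins the medians of 20 equal bins of protein-coding genes; it runs from -0.65 to -0.09 on the left and from -1.22 to 0.52 on the right, and Pdia4 lies far above it at the right.

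Genes with and without the promoter motifs were set beside each other as a description. The 10 genes with ERSE or ERSE-II had a median difference of -0.33 in MycVD (range -0.68 to -0.04), and the 22 tested genes whose windows held neither had -0.57 (range -1.48 to 0.09). In MBCs the medians were -0.40 and -0.37. Genes with and without the motifs also differ in role, and the part of either was not tested.

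Further genes of the route were read from a list of 55, written with earlier results of these data known, which holds among others the oligosaccharyltransferase, the catalytic signal peptidase subunits, other signal recognition particle genes and cargo receptors. In MycVD 52 were tested and 0 were called at an adjusted p under 0.05; by unadjusted p under 0.05, 17 were below MycWT and 0 above, against 15.7% and 1.24% of all genes, with a median of -0.41, which is -0.09 relative to protein-coding genes. In MBCs 51 were tested and 1 fell: Fkbp2, a prolyl isomerase of the ER (1.96% of the list, against 5.04% of all genes called lower), went from 68.35, 44.12, 54.19 and 45.53 TPM to 6.9, 7.44 and 9.92 TPM (-2.57 ± 0.32, adjusted p = 0.00352). With the mouse as a block it differed by -2.64 ± 0.58 (adjusted p = 0.0488). By unadjusted p under 0.05, 4 were above and 7 below LZ, against 11.3% and 15.8% of all genes, and the median was -0.10, or 0.03 relative to protein-coding genes. Xbp1, the factor named above, was at 54.78 to 73.64 TPM in MycWT LZ, 42.99 to 66.67 in MycVD LZ and 60.39 to 106.21 in MBCs (-0.24 ± 0.21 and 0.29 ± 0.27), and TPM per gene do not tell its spliced form.

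RNA of other cells was looked for with marker lists. The summed level of 10 plasma cell genes was 577.4 to 847.4 TPM in MycWT LZ, 331.0 to 585.5 in MycVD LZ and 384.6 to 693.2 in MBCs, mostly from Jchain, Slamf7 and Mzb1, while Tnfrsf17 was listed at 0 in all 11 libraries and Sdc1 did not exceed 6.05 TPM. Its median was 758.0 TPM in MycWT LZ and 462.6 TPM in MycVD LZ. Over the 7 genes of the list tested in MycVD the median difference was -0.32, or 0.0 relative to protein-coding genes. The lowest were Mzb1, an ER protein of antibody folding, at -1.28 ± 0.25 (adjusted p = 0.0805), and Jchain at -1.09 ± 0.28 (adjusted p = 0.122). These sizes were like those of Spcs2 and Ssr4, while Slamf7 differed by -0.17 ± 0.24. In MBCs 3 of the 7 plasma cell genes tested were above 0 (Irf4 0.75, Prdm1 0.32, Xbp1 0.29) and 4 below, of which 1, Mzb1, fell (-1.88 ± 0.49, adjusted p = 0.0462). The part of plasma cells in the differences of the 40 genes was not tested. For 8 myeloid genes the sums were 11.1 to 21.8, 10.9 to 27.4 and 58.7 to 243.5 TPM, so they were higher in MBCs, as Pdia4 was. Among the MBC libraries, Pdia4 was highest (141.51 TPM) in that of mouse 3, where the myeloid sum was lowest (58.7 TPM) and Fcer1g was listed at 0, and it was at 122.21 TPM in that of mouse 4, where the sum was highest. These are 3 libraries, sorted as B220+, and the part of myeloid RNA in Pdia4 was not tested. T cell genes summed to at most 13.1 TPM in any library. The 6 erythroid genes had sums of 115.5 to 225.6 TPM (median 159.0) in MycWT LZ and 71.9 to 409.6 TPM (median 347.7) in MycVD LZ, with 3 of the 6 higher in MycVD at an unadjusted p under 0.05 and 0 at an adjusted one, and of 7.6 to 6712.6 TPM in MBCs. Both genes of naive follicular B cells rose in MBCs: Ighd, although the sort was IgDneg, was at 19.59 to 31.86 TPM in MycWT LZ and 59.27 to 156.35 in MBCs, and Fcer2a (CD23) at 185.29 to 212.9 and 480.33 to 531.48 TPM. The part of erythroid RNA in the MycVD differences and of naive B cells in the MBC differences was not tested.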

How the data were processed

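RNA of sorted LZ B cells of 4 MycWT and 4 MycVD mice and of MBCs of 3 of the MycWT mice was prepared with a NuGEN cDNA kit and sequenced (Illumina HiSeq), 1 library per mouse and cell type. The authors quantified reads with RSEM 1.3.0 and STAR 2.5.2a on the GRCm38 transcriptome of Ensembl counting 1 strand, and deposited TPM with 2 decimals, so depth is unknown and a value of 0 can be a failed estimate. The authors' own test needs counts, so limma 3.58.1 (R 4.3.3) was used on log2(TPM + 1), with a trend and Benjamini-Hochberg adjustment, two-sided, leaving out genes whose mean over the groups compared was under 1 TPM. Fold changes are on that scale and understate those of low genes. Exact permutation tests of single genes were two-sided (Python 3.11.15, scipy 1.17.1). Symbols, lengths and coordinates are from GENCODE M21 (GRCm38), promoter windows from RefSeq (GRCm38.p6). Copies were transcripts of other genes with at least 95% identity over 200 bases in blastn 2.17.0 and a level of 1 TPM in some library.

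The 40 genes, the lists and the tests were chosen with earlier results of these data known. Genes with values for each library were those with an adjusted p under 0.05, filled up to 8 by the size of the difference, together with Hspa5, Hsp90b1, Atf4, Ddit3, Ern1, Eif2ak3, Atf6 and Sec61a1; other members are given by their ranges, except that Calr, Sec63, Edem1, Hyou1, Ssr3, Dnajb11 and Sec62 have values of single libraries, chosen after their values were seen, and Xbp1 and genes past the adjusted threshold were named from the list of 55. Titles name the mouse, which pairs an MBC library with an LZ library; over 13245 genes the deviations of the 2 libraries from their groups had r = 0.00507 for mouse 1, 0.0115 for mouse 3 and -0.047 for mouse 4. Alternatives were another pseudocount, filters, scalings, a shared fit of the 3 groups, no trend, the mouse as a block (mice 1, 3 and 4 only), unadjusted p and each library left out. Corrections for length and GC content were added after seeing the data.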

Additional observations from a re-analysis of the deposited data

Results flagged for a closer look

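Among 80 groups of 4 LZ libraries (40 genes in 2 genotypes), 7 held a library that lay apart, its gap to the nearest other divided by the group's range being above Dixon's 95% critical value; chance alone gives about 1 in 20. In MycVD mouse 5, Sec61a1 was at 74.12 TPM (others 29.02 to 34.48), Ssr3 at 81.48 TPM (others 30.33 to 36.73) and Ern1 at 2.85 TPM (others 0 to 0.31). In MycVD mouse 6, Dnajb11 was at 151.27 TPM, with 42.95 to 60.34 TPM in the others. In MycVD mouse 7, Sec62 was at 55.67 TPM, with 11.47 to 17.64 TPM in the others. In MycWT LZ, Creld2 was at 21.3 TPM in mouse 3 (others 13.07 to 14.04) and Sec61g at 38.86 TPM in mouse 2 (others 21.63 to 22.77).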

How the results depend on the processing

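In MycVD the number of the 40 genes called higher was 0 under all alternatives, and the number called lower was 0 except for 1 with a mean of at least 5 TPM (0.158% of all genes), 14 with unadjusted p and 0 to 3 with 1 library left out (3, Spcs2, Ssr3 and Derl2, without mouse 5). Their median of -0.47 was -0.13 after the median ratio and after the length correction, -0.09 on the protein-coding total and -0.17 after the GC correction, and -0.57 to -0.33 with 1 library left out; relative to protein-coding genes it stayed between -0.32 and -0.07. In MBCs the number called higher was 1 except for 2 with the length or GC correction, 4 with unadjusted p and 1 to 4 with 1 library left out. Of all genes, 4.17% were called higher, 4.25 and 5.35% with the length and GC corrections and 11.3% with unadjusted p. With 1 library left out the share was 1.56 to 7.06%, and under the remaining alternatives 0.989 to 6.47%. The number called lower, 5, was 0 with no filter and 0 in the fit with a replicate block for the mouse, 1 with no trend, 2 after the length correction, 3 with a pseudocount of 0.1, 4 after the GC correction, 6 after the median ratio, on the protein-coding total and with all 3 groups in the fit, 7 after quantile normalization, 9 with unadjusted p and 0 to 9 with 1 library left out. Of all genes, 5.04% were called lower, 1.16% with no filter, 0.897% with the block, 3.84 to 4.47% with the pseudocount, no trend or the length correction, and 5.29 to 7.71% with the GC correction, the scalings or all 3 groups. The median of -0.38 was -0.18 after the GC correction and -0.48 to -0.13 with 1 library left out, and relative to protein-coding genes it was -0.52 after quantile normalization, and -0.39 to 0.03 with 1 library left out, turning sign without the MBC library of mouse 1. In MycVD the number of the 39 genes above 0 went from 3 to 13 after the median ratio, among them Calr (0.31), Syvn1 (0.30), Sec63 (0.21), Edem1 (0.20), Creld2 (0.17), Sel1l (0.10) and Pdia6 (0.04). Of the other named genes, Hspa5 was at 0.15 (GC), 0.11 (length), 0.13 (median ratio), 0.17 (protein-coding total) and 0.09 (quantile), Hsp90b1 at 0.01 (GC and protein-coding total), Eif2ak3 at 0.02 (median ratio) and 0.06 (protein-coding total), Atf6 at 0.06 (GC), 0.0013 (median ratio) and 0.04 (protein-coding total), and Ddit3 at -0.38 to 0.61 with 1 library left out. In MBCs, Hspa5 was at 0.08 (GC), 0.07 (length) and -0.29 to 0.17 with 1 library left out, Eif2ak3 at 0.02 (GC) and Sec61a1 at 0.12 (GC) and 0.03 (length). The fit with the block also left out the LZ library of mouse 2. In it the calls of all 5 lower genes were lost and that of Pdia4 was not. The differences of the 5 genes were then -1.95 (Atf4), -1.61 (Sec61b), -2.34 (Spcs1), -1.06 (Herpud1) and -2.81 (Srp54a). The causes were not tested. TPM hold no depth, so counting error could not be set beside the spread of 3 or 4 mice.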

Other observations

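Ratios within a library do not change when all its values are multiplied by 1 factor, but they keep any effect of transcript length. The ratios here were chosen after the values were seen, so they are given as values with no test. For every 100 TPM of Hspa5, Spcs2 had 21.5, 19.7, 21.8 and 24.9 TPM in MycWT LZ of mice 1 to 4, 10.5, 5.82, 12.7 and 8.13 TPM in MycVD LZ of mice 5 to 8, and 9.41, 33.5 and 13.1 TPM in MBCs of mice 1, 3 and 4. All MycVD libraries lay below all MycWT LZ libraries, and MBCs lay on both sides. The 12 translocon, TRAP and signal peptidase genes summed to 31.6 to 42.2 TPM for every 100 TPM of the 15 chaperones, lectins and isomerases in MycWT LZ, 21.5 to 30.5 TPM in MycVD LZ and 21.2 to 27.6 TPM in MBCs. Among the 12 are Sec61b, Ssr2 and Spcs1, which are short, and Sec61g, whose value is uncertain. For every 100 TPM of Pdia3, Pdia4 had 14.5 to 18.5 TPM in MycWT LZ, 10.1 to 20.3 TPM in MycVD LZ and 105.0, 98.4 and 73.0 TPM in MBCs, and for every 100 TPM of Hspa5, Atf4 had 21.8 to 23.1 TPM in MycWT LZ, 15.6 to 23.1 TPM in MycVD LZ and 4.0 to 8.73 TPM in MBCs.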
